A study of Homo sapiens with 40 samples.

Results

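The gene-by-gene difference between the TGFβ responses of 2 related mammary sphere cultures was examined. For each gene, the log2 fold-change upon TGFβ stimulation in MI-spheres was subtracted from that in MII-spheres, (MII TGFβ less MII Ctrl) less (MI TGFβ less MI Ctrl). This difference is called the interaction term below, and a positive value means that the response was more positive in MII- than in MI-spheres. MI-spheres were 3D cultures of MCF-10A, an immortalized, non-tumorigenic breast epithelial line. MII-spheres were 3D cultures of MCF-10A-HRAS, its derivative transformed with HRAS, named MCF-10AneoT in the study. Both lines grew in ultra-low attachment plates, both were labelled WT for genotype, and both received either no ligand (Ctrl) or TGF-beta1 at 2.5 ng/ml for 16 h (TGFβ). The members were the 12 sphere RNA-seq libraries among the 40 samples of the series, 3 biological replicates by label in each of the 4 groups. Of the 60708 genes in the count files, 18591 had enough counts to be tested. Each genotype was represented by 1 line, so the presence of HRAS cannot be told apart from any other property that separates these lines.

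TGFβ binds serine/threonine kinase receptors that phosphorylate SMAD proteins, which then enter the nucleus and regulate genes together with partner factors. In epithelial cells the ligand is known for arresting the cell cycle, for inducing extracellular matrix, and for promoting epithelial-mesenchymal transition (EMT). HRAS is a small GTPase that drives the RAF, MEK and ERK kinase cascade, and oncogenic RAS is known for altering how epithelial cells respond to TGFβ. An interaction term compares the fold-changes of a gene upon the ligand in these lines, so it is relative to the level before stimulation in each.

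Counts on genes ranged from 14124688 to 28523441 per library, and across genes the log2 CPM of pairs of replicates had a Pearson's r between 0.9956 and 0.9971. HRAS, the gene used for transformation, was measured first. Its values were 40.1, 38.7 and 40.4 CPM without and 54.0, 60.1 and 56.6 CPM with TGFβ in MI-spheres, and 213, 219 and 219 CPM without and 189, 187 and 198 CPM with it in MII-spheres. All 6 MII libraries lay above all 6 MI libraries, and the interaction term of HRAS was -0.70 ± 0.07 (SE, adjusted p = 4.0e-10). In MII-spheres, counts per gene cannot tell transcripts of the introduced HRAS from those of the line's own gene. CPM give a gene's counts as a rate within its library, corrected with TMM factors for differences in library composition. Every adjusted p comes from the quasi-likelihood test of edgeR, adjusted after Benjamini and Hochberg over the 18591 genes. The summed level of 8 basal mammary epithelial markers such as KRT5 and TP63 ranged from 984 CPM in MII Ctrl to 4243 CPM in MI TGFβ libraries. Of the 8, 7 were called for the interaction, 5 as more positive in MII- and 2 in MI-spheres. Over all genes tested, 12.6% and 9.75% were called in these directions. Of 8 fibroblast markers, 4 were tested and none was called, and their summed level was 17.2 to 18.4 CPM in MI Ctrl, 42.3 to 43.5 CPM in MI TGFβ and under 5 CPM in all 6 MII libraries. Of 8 immune markers, 3 were tested and none was called, and PTPRC, CD3E, CD3D and MS4A1 were among those too low to be tested. The summed level of the 8 immune markers was 98.6 to 105.3 CPM in MI Ctrl and 95.7 to 103.1 CPM in MI TGFβ libraries. In MII-spheres it was higher, 224.8 to 227.2 CPM without and 212.6 to 232 CPM with TGFβ. Of 7 endothelial markers, 3 were tested and CDH5 was called, with 2.81 (adjusted p = 1.1e-14). The summed level of the 7 was 30.9 to 34.3 CPM in MI Ctrl and 12.6 to 14.1 CPM in MI TGFβ libraries. In MII-spheres it was 113.2 to 115.4 CPM without and 95.7 to 106.7 CPM with TGFβ. The share of mitochondrially encoded counts was lower with TGFβ in both lines, from 0.687% to 0.789% without and 0.423% to 0.572% with it in MI-spheres, and from 1.41% to 1.66% without and 1.02% to 1.18% with it in MII-spheres. The second MI TGFβ library had counts on 36371 genes, against 26568 to 32368 in the other 11. Without that library, 4441 genes were called in place of 4156, and the share of calls more positive in MII-spheres was 46.5% in place of 56.4%. This share was also 48.8% without the first MI TGFβ library, 49.2% without the third MII TGFβ library and 48.2% when protein-coding genes were tested alone. Of the 6 MI libraries, 1 Ctrl and 2 TGFβ libraries carried sequencing sample numbers set apart from those of the other 9 libraries. A fit with a term for these numbers called 4343 genes, of which 3950 were among the 4156. In bulk RNA, fewer cells of a type and less RNA per cell cannot be told apart.

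The responses of the lines differed for 4156 genes, or 22.4% of those tested at an adjusted p under 0.05. The response was more positive in MII-spheres for 2344 genes, or 12.6% of all tested, and more positive in MI-spheres for 1812 genes, or 9.75%. The difference exceeded 1 on the log2 scale for 1085 genes, or 5.84%, with 697 in the first and 388 in the second direction. The median interaction term over all tested genes was -0.00057, with an interquartile range from -0.27 to 0.26 and a median SE of 0.16. Calls depended on abundance. When genes were put into 5 equal groups by mean CPM, 3.71% were called in the lowest and 39.6% in the highest group. Protein-coding genes were called in 27.5% of cases (3728 of 13549), and lncRNAs in 9.03% (308 of 3412).

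The interaction could arise in several ways, and the separate responses of the 2 lines, tested in the same fit, were used to sort the called genes. Among genes more positive in MII-spheres, 665 fell in MI-spheres and were not called in MII-spheres, 642 rose in MII-spheres and were not called in MI-spheres, 431 fell in both with the larger fall in MI-spheres, 280 rose in both with the larger rise in MII-spheres, and 16 passed in neither line. A further 310 fell in MI- and rose in MII-spheres. Among genes more positive in MI-spheres, 638 rose in MI-spheres and were not called in MII-spheres, 581 rose in both with the larger rise in MI-spheres, 301 fell in MII-spheres and were not called in MI-spheres, and 21 passed in neither. A further 162 rose in MI- and fell in MII-spheres, and the rest fell in both with the larger fall in MII-spheres. In all, 472 genes responded in opposite directions, each response with an adjusted p under 0.05.

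**Figure D1:**
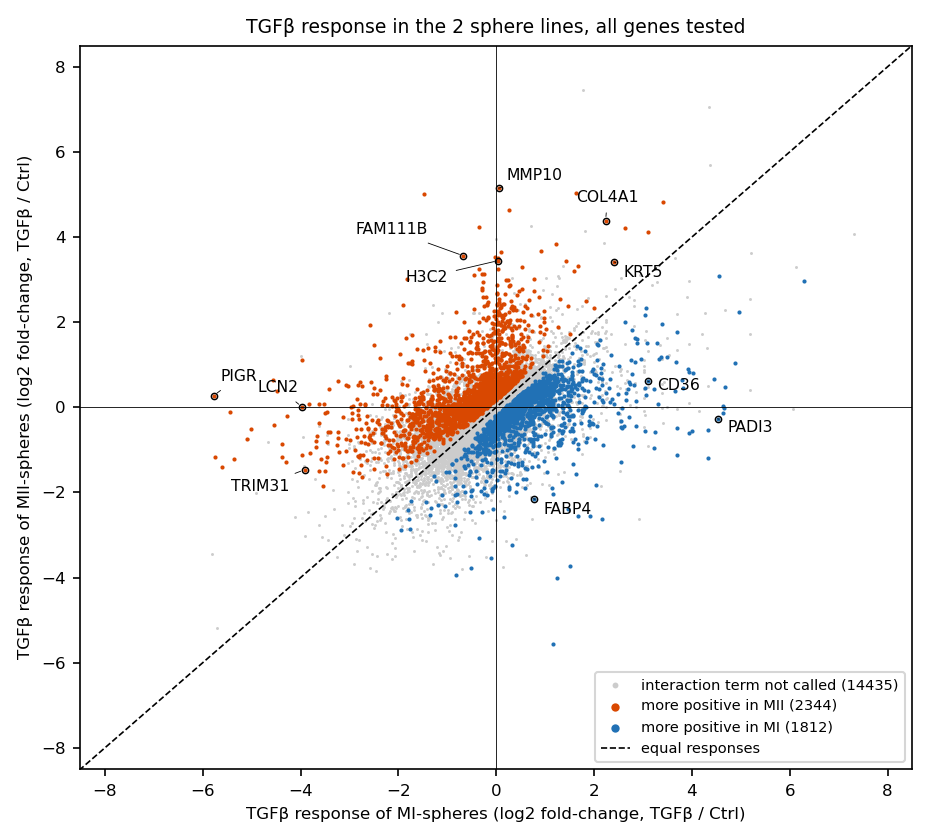
Log2 fold-change upon TGFβ in MI-spheres (x axis) against that in MII-spheres (y axis), 1 point per tested gene, coloured by the direction of the interaction term where its adjusted p was under 0.05. LCN2 and PIGR lie far to the left near 0 on the y axis, FAM111B and MMP10 lie high above 0 near 0 on the x axis, and PADI3 lies far to the right.

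The interaction with the smallest adjusted p was that of LCN2 (chr9:128149071-128153453, GRCh38), which encodes lipocalin 2, an iron-siderophore binding protein of mucosal defence. Its values were 239, 241 and 231 CPM without and 14.2, 16.5 and 14.6 CPM with TGFβ in MI-spheres, and 1282, 1298 and 1307 CPM without and 1291, 1305 and 1315 CPM with it in MII-spheres. The MI groups were far apart while the MII groups overlapped. The interaction term was 3.98 ± 0.07 (SE, adjusted p = 1.5e-32), made of responses of -3.97 ± 0.06 in MI- and 0.01 ± 0.04 in MII-spheres. PIGR (chr1:206928522-206946466), which encodes the receptor that carries polymeric immunoglobulins across epithelia, had the largest term among genes with a mean of at least 5 CPM in a group. It measured 42.6, 41.5 and 44.3 CPM without and 0.515, 0.553 and 1.18 CPM with TGFβ in MI-spheres, and 126, 124 and 111.6 CPM without and 147, 145 and 145 CPM with it in MII-spheres. Its responses were of opposite sign and its interaction term was 6.05 ± 0.14 (SE, adjusted p = 2.2e-28). BPIFB1, a secreted airway and oral defence protein, went from 44.2 to 1.00 CPM in MI- and from 301 to 279 CPM in MII-spheres, with a term of 5.33 ± 0.12 (SE, adjusted p = 9.7e-30).

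These genes belonged to a list of 45 complement, acute phase and mucosal defence genes, of which 34 could be tested. In this list 23 members were called as more positive in MII-spheres and 3 as more positive in MI-spheres. Over all genes tested these shares were 12.6% and 9.75%, which stand beside every count of list members below. Calls in either direction were made for 27.5% of protein-coding genes and for 39.6% of the highest of 5 groups by mean CPM. The median term of the list was 1.03, with median responses of -1.06 in MI- and 0.02 in MII-spheres. C3, the central complement component, measured 1313, 1297 and 1239 CPM without and 482, 465 and 419 CPM with TGFβ in MI-spheres, and 592, 597 and 596 CPM without and 677, 686 and 666 CPM with it in MII-spheres. It fell in MI- and rose in MII-spheres, with a term of 1.68 ± 0.06 (SE, adjusted p = 4.2e-22). Complement factor B (CFB, 1.83 (adjusted p = 3.2e-06)), the acute phase proteins SAA1 (2.50 (adjusted p = 3.4e-09)) and SAA2 (3.37 (adjusted p = 5.3e-10)), the antimicrobial S100A7 (2.22 (adjusted p = 2.7e-04)), and the mucins MUC15 (2.12 (adjusted p = 9.4e-04)) and MUC20 (2.10 (adjusted p = 5.0e-08)) had terms in the same direction, and each fell in MI-spheres. SAA1 and SAA2 are near-identical copies whose reads may be split uncertainly. Members in the other direction included complement factor I (CFI, -0.92 (adjusted p = 0.012)) and the defensin DEFB1 (-1.02 (adjusted p = 7.2e-09)). CFI, known as an inhibitor of complement, rose in MI-spheres by 1.76 on the log2 scale.

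Inflammatory genes shared this direction. Of 29 chemokines and cytokines tested among 43 listed, 14 were called as more positive in MII-spheres and 1 as more positive in MI-spheres. Over all genes these shares were 12.6% and 9.75%, and the median term of the list was 0.82. CXCL8, a neutrophil attractant, measured 124, 129.9 and 134 CPM without and 34.8, 34.3 and 41.8 CPM with TGFβ in MI-spheres, and 7.85, 8.86 and 7.38 CPM without and 17.96, 17.9 and 14.2 CPM with it in MII-spheres. It fell in MI- and rose in MII-spheres without overlap in either line, and its term was 2.84 ± 0.13 (SE, adjusted p = 4.3e-20). Even after stimulation its level in MII-spheres stayed below that in stimulated MI-spheres. CCL20, CXCL2, CXCL3 and IL32 had terms of 5.20, 1.94, 1.89 and 2.78, with adjusted p of 8.9e-06, 5.7e-07, 0.0012 and 5.7e-06. The mean of CCL20 was under 5 CPM in each of the 4 groups, so its large term rests on low levels. CCL20 attracts CCR6-bearing lymphocytes, and CXCL2 and CXCL3 act on neutrophils. The single member called in the other direction was IL18, with -0.21 (adjusted p = 0.033).

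NF-kB is a family of transcription factors that drives many of these cytokines and also its own inhibitors. Of 23 NF-kB factors and feedback genes tested, 16 were called and all 16 were more positive in MII-spheres, against 12.6% of all genes. BIRC3, an inhibitor of apoptosis induced by NF-kB, measured 80.4, 84.7 and 87.6 CPM without and 15.3, 13.4 and 15.7 CPM with TGFβ in MI-spheres, and 26.8, 23.4 and 23.9 CPM without and 35.1, 33.9 and 31.2 CPM with it in MII-spheres. Levels fell in MI- and rose in MII-spheres, and the term was 2.95 ± 0.10 (SE, adjusted p = 3.5e-23). The inhibitor NFKBIA measured 359, 358 and 375 CPM without and 141, 140.1 and 149 CPM with TGFβ in MI-spheres, and 78.0, 79.6 and 77.6 CPM without and 66.5, 60.8 and 69.2 CPM with it in MII-spheres. It fell in both lines, with the larger fall in MI-spheres and a term of 1.08 ± 0.07 (SE, adjusted p = 3.6e-15). TNFAIP3, a deubiquitinase that limits NF-kB signaling, NFKBIZ, NFKB2 and RELB had terms of 1.82, 1.33, 1.10 and 0.95, with adjusted p of 2.2e-10, 8.9e-18, 5.0e-10 and 1.0e-06. RELA, which encodes the p65 subunit, was not called (-0.01 (adjusted p = 0.95)). The median response of the list was -0.77 in MI- and 0.09 in MII-spheres.

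Antigen presentation and interferon-stimulated genes had smaller terms. Of 19 antigen presentation genes tested among 26 listed, 13 were called and all were more positive in MII-spheres, with a median of 0.47. Over all genes, 12.6% were called as more positive in MII- and 9.75% in MI-spheres. B2M, the light chain of MHC class I, measured 1174, 1203 and 1263 CPM without and 972, 899.9 and 1091 CPM with TGFβ in MI-spheres, and 1209, 1161 and 1173 CPM without and 1376, 1367 and 1385 CPM with it in MII-spheres. The MI groups separated downwards and the MII groups upwards, and the term was 0.52 ± 0.07 (SE, adjusted p = 2.1e-07). HLA-B (0.64 (adjusted p = 4.8e-09)), the peptide transporters TAP1 (0.59 (adjusted p = 2.2e-05)) and TAP2 (0.94 (adjusted p = 1.5e-07)), and the immunoproteasome subunits PSMB9 (0.96 (adjusted p = 0.0032)) and PSMB10 (0.74 (adjusted p = 1.5e-07)) had terms of the same sign. Reads of the HLA paralogs may be divided uncertainly. Of 46 interferon-stimulated genes tested, 17 were more positive in MII- and 2 in MI-spheres, and the median was 0.38. IRF1, STAT2, GBP1 and IFIT3 had terms of 0.90, 0.58, 0.73 and 0.66, with adjusted p of 1.6e-11, 1.5e-08, 1.7e-04 and 0.008. The 2 members in the other direction were LGALS3BP (-0.24 (adjusted p = 0.0024)) and SAMD9 (-0.42 (adjusted p = 4.9e-06)).

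**Figure D2:**
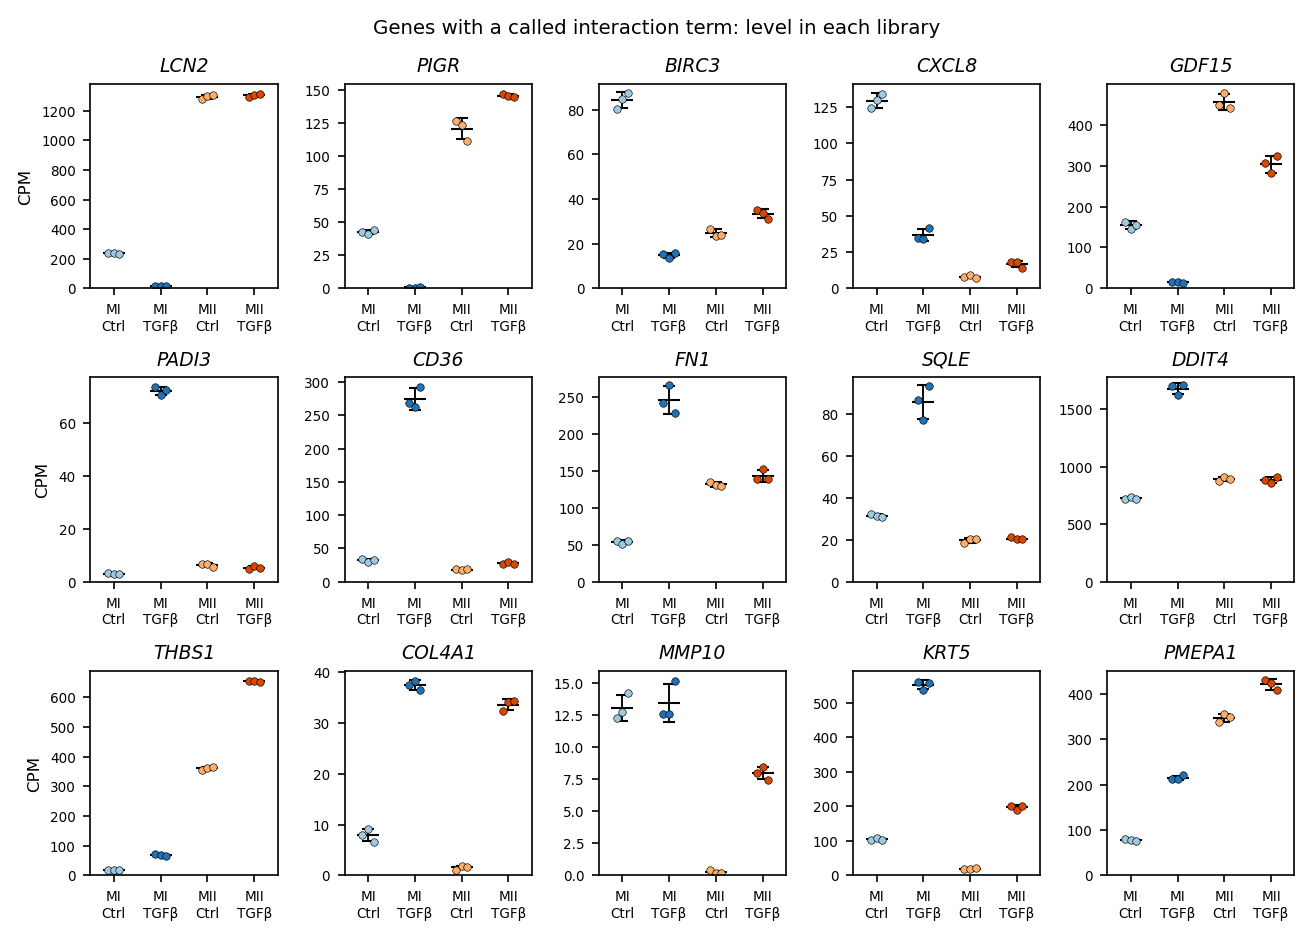
CPM (y axis, linear scale from 0, set for each gene) of 15 genes in each of the 12 libraries, grouped as MI Ctrl, MI TGFβ, MII Ctrl and MII TGFβ, with points for libraries and bars for the mean ± SD of 3 libraries. LCN2 fell from a mean of 237 to 15.1 CPM in MI-spheres and measured 1296 and 1304 CPM in MII-spheres, while PADI3 rose from 3.11 to 72.3 CPM in MI-spheres and measured 6.43 and 5.37 CPM in MII-spheres.

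Many cell cycle genes were called as more positive in MII-spheres. The median log2 CPM of members, averaged over libraries, was lowest in MII Ctrl for the licensing, fork, histone, recombination, spindle, E2F and cyclin lists. In MII TGFβ it exceeded MI TGFβ for the fork, histone and recombination lists. It was 3.91 in both for licensing genes. For spindle (3.83 against 4.10), E2F (4.07 against 4.21) and cyclin genes (4.61 against 5.05) it stayed below MI TGFβ. DNA replication begins when the origin recognition complex, CDC6 and CDT1 load the MCM helicase on chromatin, and CDC45 and the GINS complex then activate it. Of the 27 licensing and firing genes tested, 22 were called as more positive in MII-spheres and 1 as more positive in MI-spheres, against 12.6% and 9.75% of all genes. Their median term was 1.22, with median responses of 0.02 in MI- and 1.38 in MII-spheres. CDC6 (chr17:40287879-40304657) measured 17.6, 17.7 and 18.4 CPM without and 18.2, 17.5 and 18.3 CPM with TGFβ in MI-spheres, and 8.18, 5.73 and 5.19 CPM without and 31.5, 34.3 and 35.01 CPM with it in MII-spheres. The MI groups overlapped, and every stimulated MII library exceeded every other library in the experiment. The term was 2.43 ± 0.14 (SE, adjusted p = 6.7e-17). MCM10, which helps to open the helicase, measured 7.36, 6.78 and 6.73 CPM without and 7.15, 7.23 and 7.07 CPM with TGFβ in MI-spheres, and 0.981, 0.724 and 1.42 CPM without and 11.1, 11.7 and 11.3 CPM with it in MII-spheres, with a term of 3.47 ± 0.22 (SE, adjusted p = 1.8e-15). Its level in unstimulated MII-spheres was the lowest of the 4 groups, and its level in stimulated MII-spheres was the highest. CDC45 (3.09 (adjusted p = 1.3e-14)), GINS2 (2.27 (adjusted p = 8.7e-13)), MCM2 (2.00 (adjusted p = 9.0e-14)), ORC1 (1.92 (adjusted p = 2.7e-08)) and MCM5 (1.79 (adjusted p = 1.7e-16)) followed. ORC2, the member in the other direction, had a term of -0.29 (adjusted p = 0.0099).

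At the replication fork and in nucleotide synthesis, 31 of 37 genes were called as more positive in MII-spheres and none as more positive in MI-spheres, with a median of 0.86. RRM2, the small subunit of ribonucleotide reductase, measured 46.2, 43.0 and 41.6 CPM without and 56.2, 48.0 and 51.5 CPM with TGFβ in MI-spheres, and 9.68, 8.59 and 8.09 CPM without and 71.0, 69.5 and 68.8 CPM with it in MII-spheres. It rose in both lines, by 0.25 in MI- and 3.00 in MII-spheres on the log2 scale, and its term was 2.75 ± 0.10 (SE, adjusted p = 2.6e-22). CLSPN, a fork protein that activates the checkpoint kinase CHK1, measured 6.42, 5.98 and 6.99 CPM without and 6.69, 6.504 and 5.93 CPM with TGFβ in MI-spheres, and 1.18, 0.988 and 1.09 CPM without and 12.7, 12.2 and 12.4 CPM with it in MII-spheres, with a term of 3.56 ± 0.21 (SE, adjusted p = 1.7e-16). The histone chaperone ASF1B (3.04 (adjusted p = 1.7e-16)), thymidine kinase TK1 (1.99 (adjusted p = 1.5e-13)), the flap endonuclease FEN1 (1.753 (adjusted p = 6.8e-15)), the sliding clamp PCNA (1.09 (adjusted p = 2.2e-14)) and thymidylate synthase TYMS (1.17 (adjusted p = 0.042)) had terms in the same direction. The replication protein A subunits RPA1 and RPA3 did not pass, with -0.20 (adjusted p = 0.17) and -0.07 (adjusted p = 0.75).

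Replication-dependent histone genes supply the histones that package newly made DNA. Of 55 listed, 51 were tested and 43 were called, all as more positive in MII-spheres, with a median term of 1.42 and median responses of -0.12 in MI- and 1.15 in MII-spheres. H3C2 (chr6:26031589-26032099) measured 44.7, 45.7 and 48.5 CPM without and 46.4, 46.1 and 50.4 CPM with TGFβ in MI-spheres, and 11.8, 9.88 and 10.7 CPM without and 118, 107.7 and 123.4 CPM with it in MII-spheres. The MI groups overlapped, and the stimulated MII libraries were the highest. Its term was 3.40 ± 0.10 (SE, adjusted p = 8.7e-26). H3C8, H1-5 and H2AC14 had terms of 3.54, 3.23 and 2.86, with adjusted p of 8.6e-24, 1.9e-22 and 1.0e-20. Histone genes are near-identical copies, so the division of reads between them is uncertain. Among 31 tested genes of homologous recombination and the Fanconi pathway, which repair broken and crosslinked DNA, 21 were called, again all in this direction. EXO1, a nuclease that resects broken ends, measured 7.06, 6.64 and 5.77 CPM without and 5.04, 5.31 and 6.12 CPM with TGFβ in MI-spheres, and 1.11, 1.25 and 1.64 CPM without and 11.2, 13.1 and 11.02 CPM with it in MII-spheres and had a term of 3.38 ± 0.22 (SE, adjusted p = 3.1e-15). BRCA1 and BRCA2 had terms of 1.59 (adjusted p = 4.5e-12) and 1.97 (adjusted p = 1.7e-12). PALB2, which links BRCA1 to BRCA2, was not called, with 0.18 (adjusted p = 0.21).

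Mitotic genes had terms of similar size. Of 65 tested genes of the spindle, kinetochore and condensin complexes, 60 were called, all more positive in MII-spheres, with a median of 1.39 and median responses of 0.18 in MI- and 1.55 in MII-spheres. TOP2A, a topoisomerase that untangles sister DNA, measured 88.8, 88.7 and 86.0 CPM without and 95.7, 94.8 and 108.4 CPM with TGFβ in MI-spheres, and 17.7, 19.0 and 21.2 CPM without and 84.4, 91.6 and 86.9 CPM with it in MII-spheres. Unstimulated MII libraries were far below the others, and stimulated MII libraries lay around the level of unstimulated MI libraries. Its term was 2.00 ± 0.09 (SE, adjusted p = 4.1e-20). The condensin subunit NCAPG (2.26 (adjusted p = 8.1e-15)), the kinetochore proteins SPC25 (2.81 (adjusted p = 1.1e-06)) and NUF2 (1.948 (adjusted p = 5.6e-07)), and the checkpoint kinase BUB1B (1.81 (adjusted p = 8.5e-12)) had terms of the same sign. The members that did not pass were PRC1, MIS18A, CENPN, PTTG1 and BUB3, with terms from -0.13 to 0.69.

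Among the regulators of the cycle, some E2F factors activate genes of S phase and others repress them. Pocket proteins and the MuvB complex can repress cell cycle genes in quiescence. Of 20 such genes tested, 9 were called, all more positive in MII-spheres, with a median of 0.24. E2F1 (chr20:33675477-33686385) measured 24.3, 24.1 and 24.7 CPM without and 12.8, 12.4 and 12.8 CPM with TGFβ in MI-spheres, and 5.17, 5.30 and 5.47 CPM without and 16.6, 17.2 and 16.2 CPM with it in MII-spheres. It fell in every stimulated MI library and rose in every stimulated MII library, with a term of 2.59 ± 0.13 (SE, adjusted p = 1.0e-18). E2F2 measured 28.3, 30.7 and 32.4 CPM without and 18.5, 17.3 and 15.9 CPM with TGFβ in MI-spheres, and 1.504, 1.38 and 1.31 CPM without and 6.76, 6.48 and 6.52 CPM with it in MII-spheres, with a term of 3.06 ± 0.18 (SE, adjusted p = 1.4e-16), and responded with the same pair of opposite signs. E2F7 (2.33 (adjusted p = 1.0e-08)), E2F8 (2.16 (adjusted p = 1.1e-07)), MYBL2 (2.24 (adjusted p = 1.4e-12)) and FOXM1 (1.10 (adjusted p = 5.6e-04)) were also called, while E2F3, E2F4, E2F5, E2F6 and RB1 were not, with terms from 0.05 to 0.15.

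Of 20 tested cyclins, CDKs and CDC25 phosphatases, 14 were more positive in MII- and 2 in MI-spheres, with a median of 0.71. CDK1, the mitotic kinase, measured 41.1, 41.7 and 46.2 CPM without and 48.5, 39.9 and 53.8 CPM with TGFβ in MI-spheres, and 9.75, 10.1 and 10.8 CPM without and 56.6, 56.5 and 51.1 CPM with it in MII-spheres, with a term of 2.28 ± 0.12 (SE, adjusted p = 8.7e-18). The MI groups overlapped and the MII groups did not. CCNA2, the cyclin of S and G2 phase, had 2.01 (adjusted p = 4.4e-15), and CCNE1, the cyclin of S phase entry, had 1.89 (adjusted p = 4.0e-09). CCND1, the cyclin that activates CDK4 and CDK6, measured 283, 273 and 264 CPM without and 189, 179 and 183 CPM with TGFβ in MI-spheres, and 167, 160.4 and 167 CPM without and 217, 215 and 216 CPM with it in MII-spheres. It fell in MI- and rose in MII-spheres, and its term was 0.96 ± 0.06 (SE, adjusted p = 3.3e-15). CDK4 and CDK6 were not called, with -0.16 (adjusted p = 0.34) and 0.09 (adjusted p = 0.37). The 2 members in the other direction were CKS2 (-0.34 (adjusted p = 0.013)) and CDC25B (-0.59 (adjusted p = 0.0032)).

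CDK inhibitors did not move as a group. Of 6 tested, 2 were more positive in MII- and 1 in MI-spheres. CDKN1A, which encodes p21, measured 372, 378 and 386 CPM without and 498, 479.8 and 480.0 CPM with TGFβ in MI-spheres, and 534, 543 and 523 CPM without and 637, 599.5 and 631 CPM with it in MII-spheres. It rose in both lines without overlap, and its term was -0.14 ± 0.06 (SE, adjusted p = 0.095), which did not pass. CDKN1C, which encodes p57, measured 3.00, 3.58 and 3.14 CPM without and 2.11, 1.36 and 1.96 CPM with TGFβ in MI-spheres, and 7.39, 7.67 and 5.30 CPM without and 1.79, 1.90 and 2.02 CPM with it in MII-spheres and fell in both, with a term of -1.001 ± 0.29 (SE, adjusted p = 0.0096). CDKN2C and CDKN3 were more positive in MII-spheres, with 1.07 (adjusted p = 6.7e-04) and 1.22 (adjusted p = 1.1e-04). CDKN2A and CDKN2B, which encode p16 and p15, were not among the genes tested. FAM111B, a replication-associated protease, also fell in MI- and rose in MII-spheres. It measured 22.6, 23.5 and 26.5 CPM without and 14.6, 12.97 and 17.7 CPM with TGFβ in MI-spheres, and 4.91, 4.25 and 4.10 CPM without and 52.8, 51.2 and 50.9 CPM with it in MII-spheres, with a term of 4.23 ± 0.14 (SE, adjusted p = 3.9e-24).

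**Figure D3:**
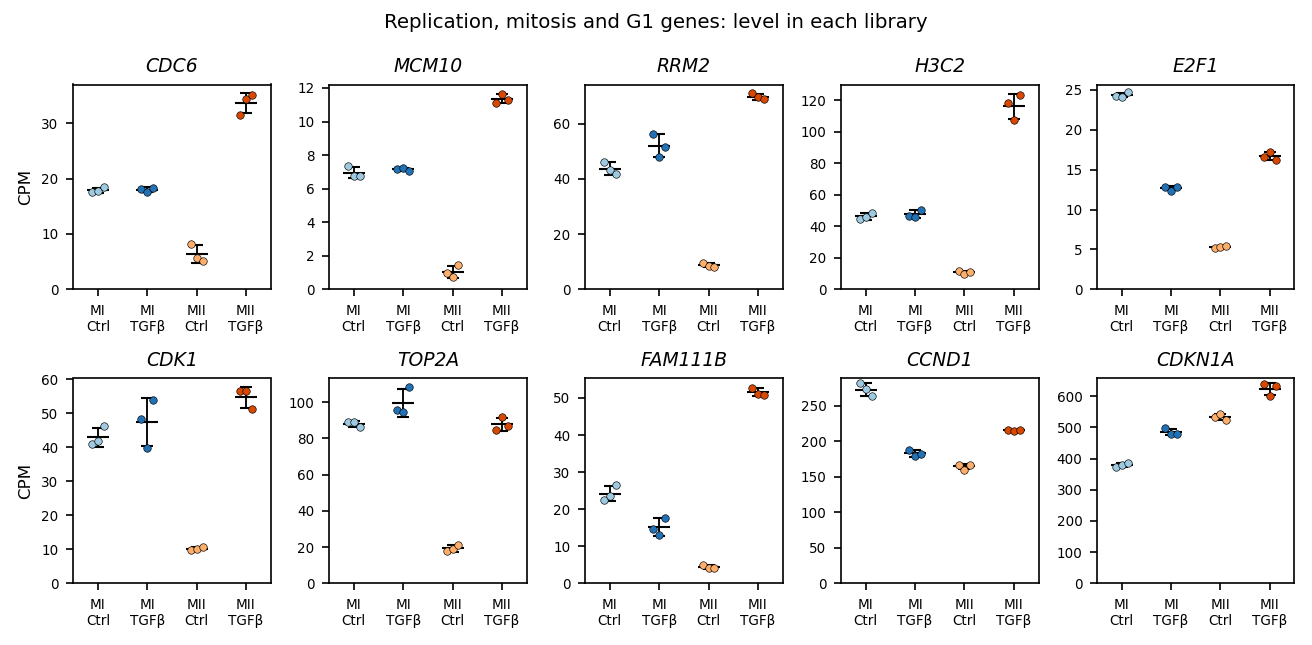
CPM (y axis, linear scale from 0, set for each gene) of 10 cell cycle genes in each of the 12 libraries, grouped as MI Ctrl, MI TGFβ, MII Ctrl and MII TGFβ, with points for libraries and bars for the mean ± SD of 3 libraries. In the MII Ctrl group CDC6, MCM10, RRM2, H3C2, E2F1, CDK1, TOP2A and FAM111B are at their lowest and rise with TGFβ, while CDKN1A rises in both lines.

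Since these genes moved together, their promoters were read for letters that are known in cell cycle promoters. RefSeq promoters on GRCh38.p14, taken as the 250 bases before the annotated start, were found for 22 of 27 licensing, 32 of 37 fork, 47 of 51 histone and 54 of 65 spindle genes tested. E2F sites were searched as TTTCCCGC or TTTGGCGC, the cell cycle homology region (CHR) as TTTGAA, and the CCAAT box as CCAAT, each on both strands. None of these sets of letters contains another. The E2F letters were present in 6 licensing promoters (27.3%) and 7 fork promoters (21.9%), against 2.99% of the 10969 promoters of protein-coding genes tested and 1.96% of all 27305 RefSeq promoters. They were in none of the histone promoters, in 2 of 26 recombination promoters and in 3 spindle promoters. The CHR letters were in 26 spindle promoters (48.1%), in 15 histone promoters (31.9%), in 2 fork promoters (6.25%), in 2 recombination promoters (7.69%) and in none of the licensing promoters, against 8.89% of protein-coding genes tested and 13.6% of all promoters. CCAAT was in 87.2% of histone, 70.4% of spindle, 63.6% of licensing, 53.1% of fork and 42.3% of recombination promoters, against 35.2% of protein-coding genes tested and 33.0% of all promoters. A match describes letters only. The promoters of 3 genes with the E2F letters and of 3 with the CHR letters are shown 5′ to 3′, as examples picked for holding a match. E2F1 and E2F2 come from the list of E2F factors, and CDC25A and CDK1 from that of cyclins and CDKs. Motif shares of these lists were not counted. Capitals mark the matched letters, on either strand. The promoters shown are E2F1 at chr20:33686386-33686635 on the - strand, E2F2 at chr1:23531234-23531483 on the - strand, CDC25A at chr3:48188418-48188667 on the - strand, CDK1 at chr10:60778081-60778330 on the + strand, TOP2A at chr17:40417897-40418146 on the - strand and NCAPG at chr4:17810729-17810978 on the + strand.
E2F1: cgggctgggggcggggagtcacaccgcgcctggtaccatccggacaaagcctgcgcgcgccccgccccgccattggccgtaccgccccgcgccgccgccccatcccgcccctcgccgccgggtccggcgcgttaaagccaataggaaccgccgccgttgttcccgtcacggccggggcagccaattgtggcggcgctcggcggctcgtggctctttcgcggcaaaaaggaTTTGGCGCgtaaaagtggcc
E2F2: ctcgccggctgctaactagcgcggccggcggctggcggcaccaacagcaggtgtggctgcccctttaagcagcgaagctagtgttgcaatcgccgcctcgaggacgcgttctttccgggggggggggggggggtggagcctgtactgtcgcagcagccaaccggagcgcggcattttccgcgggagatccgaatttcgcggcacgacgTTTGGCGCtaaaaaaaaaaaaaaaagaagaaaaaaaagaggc
CDC25A: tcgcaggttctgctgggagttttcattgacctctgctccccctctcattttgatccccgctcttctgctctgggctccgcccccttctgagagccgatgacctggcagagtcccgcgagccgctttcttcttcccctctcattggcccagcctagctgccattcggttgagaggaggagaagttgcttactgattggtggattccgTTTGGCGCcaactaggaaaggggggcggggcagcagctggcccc
CDK1: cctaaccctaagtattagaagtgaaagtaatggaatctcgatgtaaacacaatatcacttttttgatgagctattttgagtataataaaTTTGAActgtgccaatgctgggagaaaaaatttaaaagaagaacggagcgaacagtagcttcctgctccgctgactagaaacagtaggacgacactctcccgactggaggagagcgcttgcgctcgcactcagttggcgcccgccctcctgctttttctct
TOP2A: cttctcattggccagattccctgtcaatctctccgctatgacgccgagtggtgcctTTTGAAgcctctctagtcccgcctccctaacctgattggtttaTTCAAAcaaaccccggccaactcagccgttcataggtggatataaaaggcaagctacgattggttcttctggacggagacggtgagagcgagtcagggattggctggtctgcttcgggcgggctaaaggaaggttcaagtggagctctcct
NCAPG: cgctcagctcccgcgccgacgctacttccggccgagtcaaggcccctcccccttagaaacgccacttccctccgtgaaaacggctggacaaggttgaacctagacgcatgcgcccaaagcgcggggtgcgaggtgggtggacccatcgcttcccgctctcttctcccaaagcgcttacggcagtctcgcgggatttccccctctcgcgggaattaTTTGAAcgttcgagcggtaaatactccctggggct

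The E2F letters of E2F1, E2F2 and CDC25A lie close to the start of the gene, and the interaction terms of these genes were 2.59, 3.06 and 1.82. TOP2A has 2 matches to the CHR letters, 1 on each strand, and CDK1 and NCAPG have 1 each, with interaction terms of 2.00, 2.28 and 2.26. CDC25A, a phosphatase that activates CDK2, measured 8.71, 9.94 and 9.47 CPM without and 9.11, 8.93 and 8.71 CPM with TGFβ in MI-spheres, and 3.99, 3.65 and 3.28 CPM without and 12.5, 12.1 and 12.03 CPM with it in MII-spheres, so the MI groups overlapped and the MII groups did not.

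Genes that TGFβ is known to induce directly differed between the lines in both directions. Of 21 feedback and direct target genes tested, 5 were more positive in MII- and 7 in MI-spheres, and the median was -0.17, so the list gave no common direction. A difference of log2 fold-changes can have another sign than the difference of changes in CPM where the lines start from unequal levels. The sign changed between these scales for 222 of the 4156 called genes (5.34%). PMEPA1, a membrane protein that sequesters SMADs, measured 79.7, 78.0 and 75.04 CPM without and 211, 211 and 221 CPM with TGFβ in MI-spheres, and 338, 355 and 348 CPM without and 430.4, 424 and 408 CPM with it in MII-spheres, and rose more in MI-spheres with a term of -1.19 ± 0.06 (SE, adjusted p = 9.3e-18). SMAD7, the inhibitory SMAD, measured 11.6, 11.3 and 11.4 CPM without and 12.4, 11.6 and 13.5 CPM with TGFβ in MI-spheres, and 8.76, 9.35 and 10.6 CPM without and 9.28, 8.25 and 9.07 CPM with it in MII-spheres, and its groups overlapped in both lines, with a term of -0.24 (adjusted p = 0.29). BAMBI, a decoy receptor, fell in MI-spheres and had a term of 1.70 (adjusted p = 1.3e-14). SMAD6 (1.12 (adjusted p = 5.2e-08)) was more positive in MII-spheres, and SKIL (-0.51 (adjusted p = 3.7e-07)), TGFBI (-0.55 (adjusted p = 1.8e-09)) and CCN2 (-1.13 (adjusted p = 7.0e-04)) were more positive in MI-spheres.

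Among TGFβ and activin ligands, receptors and SMADs, 8 of 24 tested genes were more positive in MII- and 5 in MI-spheres, with a median of -0.03 that turned positive under 2 of 23 alternative settings. The ligand GDF15 measured 163, 145 and 155 CPM without and 14.4, 14.8 and 13.8 CPM with TGFβ in MI-spheres, and 448, 477 and 440.5 CPM without and 307, 282 and 323 CPM with it in MII-spheres. It fell in both lines, far more in MI-spheres on the log2 scale, with a term of 2.85 ± 0.08 (SE, adjusted p = 5.4e-26). In CPM the fall of GDF15 was slightly larger in MII-spheres. The activin subunit INHBA measured 13.4, 13.99 and 14.6 CPM without and 21.5, 24.2 and 23.5 CPM with TGFβ in MI-spheres, and 100.3, 99.3 and 101.4 CPM without and 78.1, 77.9 and 75.1 CPM with it in MII-spheres and moved in opposite directions, with -1.11 ± 0.09 (SE, adjusted p = 1.4e-12). The activin inhibitors FST and FSTL3 had terms of 1.19 (adjusted p = 0.033) and 1.13 (adjusted p = 1.5e-11), and the co-receptors TGFBR3 and ENG had terms of -1.61 (adjusted p = 1.0e-04) and -0.81 (adjusted p = 0.0015). TGFBR1, TGFBR2, SMAD2 and SMAD4 were not called, with terms from -0.08 to 0.00, whereas SMAD3 fell less in MII-spheres (0.51 (adjusted p = 1.2e-06)). Of 16 ID and BMP genes, which respond to the BMP branch, 5 were more positive in MII- and 2 in MI-spheres, with BMPR1B at 1.29 (adjusted p = 2.0e-12) and ID3 at -0.71 (adjusted p = 4.0e-10).

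Genes of EMT leaned toward MI-spheres. Of 26 EMT factors and mesenchymal genes tested, 9 were more positive in MI- and 4 in MII-spheres, with a median of -0.29. FN1 (chr2:215360440-215436073), the matrix protein fibronectin, measured 55.6, 51.0 and 55.4 CPM without and 242, 266 and 228 CPM with TGFβ in MI-spheres, and 136, 130.8 and 129.3 CPM without and 139.8, 153 and 139 CPM with it in MII-spheres. It rose in MI-spheres, and in MII-spheres the response of 0.13 did not pass although the groups did not overlap. The term was -2.06 ± 0.08 (SE, adjusted p = 2.3e-22). VCAN (-1.44 (adjusted p = 6.4e-05)), PDGFB (-1.27 (adjusted p = 8.4e-05)), TWIST1 (-0.62 (adjusted p = 0.033)) and LOX (-0.48 (adjusted p = 0.032)) had terms of the same sign, and TAGLN (1.12 (adjusted p = 0.0091)), WNT5A (0.91 (adjusted p = 1.9e-07)), NT5E (0.90 (adjusted p = 3.4e-08)) and HMGA2 (0.64 (adjusted p = 0.0064)) had terms of the other. VIM, CDH2, SNAI1 and ZEB1, which mark or drive EMT, were not called, with -0.51 (adjusted p = 0.17), -0.61 (adjusted p = 0.071), -0.29 (adjusted p = 0.32) and -0.28 (adjusted p = 0.61). SNAI2, which encodes SLUG, measured 4.47, 4.33 and 3.85 CPM without and 8.95, 7.74 and 7.89 CPM with TGFβ in MI-spheres, and 1.70, 1.32 and 1.53 CPM without and 1.59, 1.83 and 2.62 CPM with it in MII-spheres. It rose in MI-spheres and overlapped in MII-spheres, and the term of -0.51 ± 0.28 (SE, adjusted p = 0.2) did not pass.

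Matrix genes were called in both directions, also within families. Of 24 collagen chains tested, 4 were more positive in MII- and 5 in MI-spheres, against 12.6% and 9.75% of all genes. The median term of the chains was -0.44, with median responses of 0.45 in MI- and -0.17 in MII-spheres. The basement membrane chains COL4A1 and COL4A2, which lie head to head on chromosome 13 with overlapping ends, had terms of 2.15 ± 0.17 (SE, adjusted p = 1.1e-12) and 2.62 ± 0.14 (SE, adjusted p = 1.1e-17). COL4A1 measured 7.998, 9.14 and 6.63 CPM without and 37.5, 38.3 and 36.5 CPM with TGFβ in MI-spheres, and 1.11, 1.81 and 1.69 CPM without and 32.4, 34.1 and 34.4 CPM with it in MII-spheres. It rose in both lines from a lower start in MII-spheres. COL12A1 (1.69 (adjusted p = 1.9e-17)) and COL8A1 (1.86 (adjusted p = 0.037)) were also more positive in MII-spheres, and COL1A1 (-1.38 (adjusted p = 1.8e-06)), COL6A1 (-1.04 (adjusted p = 5.1e-06)), COL17A1 (-0.63 (adjusted p = 6.4e-09)), COL4A5 (-0.78 (adjusted p = 7.0e-12)) and COL5A2 (-0.39 (adjusted p = 0.016)) in MI-spheres. Of 40 matrix glycoproteins and proteoglycans, 16 were more positive in MI- and 10 in MII-spheres. The laminin chains LAMA3 and LAMB3 were more positive in MII-spheres, with 0.88 (adjusted p = 1.7e-13) and 0.23 (adjusted p = 0.0052). HAS2, which makes hyaluronan, had 2.75 (adjusted p = 9.2e-04), and TNC had 0.68 (adjusted p = 1.1e-06). SPARC (-2.202 (adjusted p = 0.022)), SDC2 (-2.37 (adjusted p = 2.8e-09)), MGP (-2.17 (adjusted p = 1.1e-06)), FBN1 (-1.01 (adjusted p = 1.4e-04)) and THBS1 (-1.11 (adjusted p = 3.9e-15)) were more positive in MI-spheres. THBS1, which is known to activate latent TGFβ, measured 17.2, 19.3 and 16.8 CPM without and 72.4, 69.9 and 66.4 CPM with TGFβ in MI-spheres, and 356, 363 and 365 CPM without and 655, 657 and 653 CPM with it in MII-spheres, so that in CPM its rise was larger in MII-spheres.

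Of 32 genes of the plasminogen system, metalloproteinases and TIMPs, 10 were more positive in MII- and 7 in MI-spheres. MMP10, which encodes stromelysin-2, measured 12.2, 12.8 and 14.2 CPM without and 12.6, 12.6 and 15.2 CPM with TGFβ in MI-spheres, and 0.392, 0.165 and 0.164 CPM without and 8.02, 8.45 and 7.46 CPM with it in MII-spheres. Its MI groups overlapped, and in MII-spheres it went from near 0 to several CPM, with a term of 5.10 ± 0.28 (SE, adjusted p = 2.7e-17). The activator PLAU (1.09 (adjusted p = 4.6e-10)) and the inhibitors SERPINB2 (2.44 (adjusted p = 2.9e-04)) and SERPINB7 (1.953 (adjusted p = 0.0041)) had terms of the same sign, while TIMP1 (-0.36 (adjusted p = 1.5e-04)), ADAM19 (-1.11 (adjusted p = 1.2e-11)) and MMP28 (-1.21 (adjusted p = 8.9e-14)) had terms of the other. The gelatinases MMP2 and MMP9 were not called, with -0.46 (adjusted p = 0.095) and -1.44 (adjusted p = 0.56). Of 17 integrin genes, 4 were more positive in MII- and 5 in MI-spheres, against 12.6% and 9.75% of all genes. The latter included ITGB6 (-1.10 (adjusted p = 1.2e-16)) and ITGB5 (-0.85 (adjusted p = 2.3e-13)), subunits of receptors that release active TGFβ. ITGB6 measured 294, 301 and 285 CPM without and 717, 690.0 and 785 CPM with TGFβ in MI-spheres, and 831, 804 and 810.0 CPM without and 970.2, 933 and 941 CPM with it in MII-spheres, which was a rise in both lines. ITGB2, the chain of leukocyte integrins, had a term of 2.37 (adjusted p = 3.2e-07) and fell in MI-spheres.

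Epithelial genes leaned toward MII-spheres. Of 41 junction and epithelial factor genes tested, 26 were more positive in MII- and 4 in MI-spheres, with a median of 0.35 and median responses of -0.29 in MI- and 0.13 in MII-spheres. CLDN1, a tight junction protein, measured 73.1, 75.7 and 75.5 CPM without and 48.7, 48.8 and 46.5 CPM with TGFβ in MI-spheres, and 72.8, 69.5 and 68.3 CPM without and 107.9, 109.8 and 114 CPM with it in MII-spheres. It fell in MI- and rose in MII-spheres, with a term of 1.29 ± 0.07 (SE, adjusted p = 7.7e-17). KLF4 (1.31 (adjusted p = 3.5e-14)), TJP3 (0.89 (adjusted p = 6.4e-12)), ELF3 (0.63 (adjusted p = 7.1e-11)), CLDN4 (0.63 (adjusted p = 2.9e-10)), OVOL2 (0.62 (adjusted p = 5.7e-04)), ESRP2 (0.49 (adjusted p = 1.6e-05)) and CDH1 (0.35 (adjusted p = 1.5e-05)) followed with smaller terms. The 4 members in the other direction were DSC2 (-0.95 (adjusted p = 1.7e-15)), EPCAM (-0.43 (adjusted p = 2.5e-05)), PKP2 (-0.41 (adjusted p = 9.4e-04)) and CDS1 (-0.23 (adjusted p = 0.02)).

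Keratins assemble into the intermediate filaments of epithelia. Of 19 tested, 9 were called, all more positive in MII-spheres, with a median of 0.30. KRT5, a basal keratin, measured 101.95, 107.02 and 103.04 CPM without and 561, 539 and 559 CPM with TGFβ in MI-spheres, and 18.1, 17.9 and 19.8 CPM without and 201, 190.4 and 202 CPM with it in MII-spheres. It rose in both lines, with a larger log2 fold-change in MII-spheres by 1.00 ± 0.07 (SE, adjusted p = 5.8e-14) and a larger rise in CPM in MI-spheres. KRT17 had 1.02 (adjusted p = 3.4e-16) and KRT6A had 1.57 (adjusted p = 6.5e-12), whose reads may be shared with its copies KRT6B and KRT6C. Like KRT5, both had the larger rise in CPM in MI-spheres. The mean of KRT17 went from 1250 to 2321 CPM in MI- and from 325 to 1220 CPM in MII-spheres. That of KRT6A went from 51.0 to 318 CPM in MI- and from 1.72 to 32.5 CPM in MII-spheres. KRT14, KRT8, KRT18 and KRT19 were not called, with terms from 0.05 to 0.13. Of 26 mammary and epithelial lineage factors, 10 were more positive in MII- and 2 in MI-spheres. XBP1 measured 228, 216 and 231 CPM without and 105.03, 97.8 and 103.1 CPM with TGFβ in MI-spheres, and 119.8, 109.8 and 113 CPM without and 190.4, 186 and 182 CPM with it in MII-spheres. It moved in opposite directions, with a term of 1.85 ± 0.07 (SE, adjusted p = 1.3e-22). The luminal factors FOXA1 (1.17 (adjusted p = 3.1e-15)), ESR1 (1.27 (adjusted p = 3.0e-04)) and SPDEF (2.40 (adjusted p = 2.3e-14)) had positive terms, as did TP63 (1.44 (adjusted p = 1.2e-05)), a basal factor, while GATA3 (-0.44 (adjusted p = 0.01)), also a luminal factor, and PAX9 (-0.65 (adjusted p = 0.035)) had negative terms. Of 8 luminal mammary markers tested, 3 were more positive in MII- and 1 in MI-spheres, with a median of 0.10 and terms from -1.54 to 4.38. TP63 measured 50.1, 52.2 and 47.6 CPM without and 79.9, 80.8 and 85.5 CPM with TGFβ in MI-spheres, and 0.719, 0.461 and 0.656 CPM without and 2.78, 2.36 and 2.69 CPM with it in MII-spheres, so its level in MII-spheres stayed well under that in MI-spheres.

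SOX4, on which the study centres, measured 200.1, 189 and 182 CPM without and 186, 194 and 194 CPM with TGFβ in MI-spheres, and 383, 375 and 365 CPM without and 386, 381 and 393 CPM with it in MII-spheres. The groups overlapped in each line, and all MII libraries lay above all MI libraries. Its term was 0.04 ± 0.06 (SE, adjusted p = 0.72), so a difference in its response to TGFβ was not detected. Of 14 SOX factors listed, 7 could be tested. SOX9 (-0.41 (adjusted p = 9.2e-04)) and SOX12 (-1.24 (adjusted p = 0.0025)) were called, both more positive in MI-spheres, as were 9.75% of all genes. SOX12 measured 3.79, 3.53 and 2.23 CPM without and 7.87, 6.72 and 5.50 CPM with TGFβ in MI-spheres, and 1.83, 2.47 and 3.33 CPM without and 1.59, 2.29 and 2.82 CPM with it in MII-spheres.

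Cornified envelope genes, which build the barrier of squamous epithelia, split evenly, with 6 called in each direction among 24 tested. PADI3 (chr1:17249098-17284233), a peptidylarginine deiminase that citrullinates structural proteins, measured 3.38, 3.01 and 2.94 CPM without and 73.5, 70.7 and 72.6 CPM with TGFβ in MI-spheres, and 6.67, 6.88 and 5.74 CPM without and 4.90, 5.83 and 5.38 CPM with it in MII-spheres. It rose in MI-spheres to a level above every MII library, the MII groups overlapped, and the term was -4.80 ± 0.15 (SE, adjusted p = 1.6e-24). Its neighbour PADI1 (chr1:17205128-17246007) measured 36.7, 35.8 and 34.99 CPM without and 67.7, 64.3 and 64.5 CPM with TGFβ in MI-spheres, and 268, 278 and 274 CPM without and 209.6, 209 and 199 CPM with it in MII-spheres. It rose in MI- and fell in MII-spheres, with -1.28 ± 0.07 (SE, adjusted p = 1.1e-17). TGM2 (-2.62 (adjusted p = 1.8e-07)) and the kallikrein KLK6 (-1.08 (adjusted p = 0.017)) shared their sign, while SPRR1B (1.77 (adjusted p = 2.6e-07)), SPRR3 (1.32 (adjusted p = 3.3e-11)) and SERPINB3 (1.49 (adjusted p = 1.2e-19)) had the opposite one. SERPINB3 and SERPINB4 are near-identical copies.

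The genes that RAS signaling is known to induce were examined next, since MII-spheres carry HRAS. The list of ERK feedback genes holds inhibitors and phosphatases that damp the cascade. It also holds other genes, such as EPHA2, ETV4, ETV5 and CCND1, and CCND1 was counted among the cyclins as well. Of 24 tested, 7 were more positive in MII- and 8 in MI-spheres, with a median of -0.11. DUSP6, an ERK phosphatase, measured 53.9, 54.0 and 55.3 CPM without and 153, 146 and 162 CPM with TGFβ in MI-spheres, and 48.8, 49.4 and 48.2 CPM without and 60.2, 61.3 and 56.7 CPM with it in MII-spheres. It rose in both lines, more in MI-spheres, with a term of -1.22 ± 0.08 (SE, adjusted p = 1.3e-15). SPRY1 (-0.71 (adjusted p = 1.5e-05)), PHLDA1 (-0.78 (adjusted p = 8.3e-13)) and ETV5 (-0.40 (adjusted p = 0.043)) had terms of the same sign, and DUSP5 (1.15 (adjusted p = 1.1e-08)), EPHA2 (0.96 (adjusted p = 3.2e-14)) and ETV4 (0.64 (adjusted p = 2.9e-04)) of the other. EPHA2 fell in both lines and fell more in MI-spheres. SPRY2 and SPRY4 were not called, with -0.28 (adjusted p = 0.051) and 0.01 (adjusted p = 0.97). Of 13 EGF family ligands and ERBB receptors, 4 were more positive in MII- and 3 in MI-spheres, against 12.6% and 9.75% of all genes. ERBB3 (0.65 (adjusted p = 1.5e-10)) and ERBB2 (0.45 (adjusted p = 5.6e-07)) differed from EGFR (-0.43 (adjusted p = 8.4e-05)), AREG (-0.55 (adjusted p = 3.2e-06)) and EPGN (-1.15 (adjusted p = 2.0e-09)) in sign.

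AP-1 and immediate early genes answer growth factor signals within minutes. Of 23 tested, 9 were more positive in MI- and 5 in MII-spheres, with a median of -0.22. FOS measured 317, 312 and 310.3 CPM without and 186, 263 and 189 CPM with TGFβ in MI-spheres, and 204, 201 and 198 CPM without and 69.0, 66.0 and 66.5 CPM with it in MII-spheres. It fell in both lines, with the larger fall in MII-spheres and a term of -1.02 ± 0.10 (SE, adjusted p = 3.4e-10), and 1 MI TGFβ library was higher than the other 2. EGR1 (-0.84 (adjusted p = 2.5e-06)), FOSB (-0.80 (adjusted p = 5.3e-06)), JUN (-0.70 (adjusted p = 3.3e-09)) and MYC (-0.72 (adjusted p = 9.4e-11)) shared this sign, and MAFF (1.21 (adjusted p = 3.2e-12)), KLF2 (1.01 (adjusted p = 0.032)) and ATF3 (0.85 (adjusted p = 1.3e-04)) had the opposite one. MYC measured 164, 163 and 165 CPM without and 232, 234 and 228 CPM with TGFβ in MI-spheres, and 69.1, 65.8 and 63.2 CPM without and 57.5, 54.4 and 57.5 CPM with it in MII-spheres, a rise in MI- and a fall in MII-spheres.

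Cholesterol genes had the largest share of members called as more positive in MI-spheres among the 42 lists. SREBP2 is a membrane-bound factor that induces cholesterol synthesis and uptake when sterols are low. Of 27 tested genes of cholesterol synthesis and SREBP2 targets, 18 were more positive in MI- and 4 in MII-spheres, against 9.75% and 12.6% of all genes, with median responses of 0.62 in MI- and 0.12 in MII-spheres. SQLE, a rate-controlling enzyme of sterol synthesis, measured 32.1, 31.6 and 31.0 CPM without and 86.7, 77.3 and 93.3 CPM with TGFβ in MI-spheres, and 18.4, 20.2 and 20.6 CPM without and 21.2, 20.3 and 20.4 CPM with it in MII-spheres, with overlapping MII groups and a term of -1.38 ± 0.10 (SE, adjusted p = 2.0e-13). STARD4 (-1.86 (adjusted p = 6.6e-10)), INSIG1 (-1.48 (adjusted p = 4.6e-12)), HMGCS1 (-1.06 (adjusted p = 4.4e-13)) and SREBF2 (-0.67 (adjusted p = 1.9e-06)) had terms of the same sign. The list also holds genes that act when sterols are high, and members in the other direction included some of these. They were ABCA1 (0.37 (adjusted p = 0.038)) and ABCG1 (0.47 (adjusted p = 2.4e-06)), which are known to export cholesterol, and MYLIP (0.46 (adjusted p = 1.3e-05)), a ubiquitin ligase induced by sterols.

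Of 31 genes of fatty acid synthesis and handling, 12 were more positive in MI- and 7 in MII-spheres, with a median of -0.03. The fatty acid transporter CD36 measured 33.7, 29.3 and 33.2 CPM without and 268, 262 and 293 CPM with TGFβ in MI-spheres, and 18.5, 17.6 and 19.2 CPM without and 26.9, 29.998 and 27.4 CPM with it in MII-spheres. Both lines rose, MI-spheres far more, and the term was -2.48 ± 0.10 (SE, adjusted p = 4.2e-22). The carrier FABP4 measured 78.4, 80.3 and 86.3 CPM without and 132, 129.4 and 153 CPM with TGFβ in MI-spheres, and 154, 143 and 155 CPM without and 34.3, 33.3 and 34.1 CPM with it in MII-spheres. It rose in MI- and fell in MII-spheres, with -2.91 ± 0.09 (SE, adjusted p = 9.3e-26). Its relative FABP5 rose in MI-spheres and had a term of -2.58 (adjusted p = 1.8e-23), and the desaturase SCD had -1.13 (adjusted p = 2.0e-17). PDK4 (1.79 (adjusted p = 4.2e-22)), a kinase that inhibits pyruvate dehydrogenase, had a positive term and fell in MI-spheres by 2.15 on the log2 scale. The endothelial lipase LIPG measured 18.6, 17.3 and 16.7 CPM without and 144, 145 and 153 CPM with TGFβ in MI-spheres, and 30.5, 29.9 and 30.3 CPM without and 36.1, 35.5 and 38.3 CPM with it in MII-spheres, with a term of -2.79 ± 0.09 (SE, adjusted p = 1.3e-24).

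Genes of the hypoxia response and glycolysis shared the direction of the sterol genes. Of 38 tested, 24 were more positive in MI- and 1 in MII-spheres, with a median of -0.41 and median responses of 1.17 in MI- and 0.71 in MII-spheres. DDIT4, an inhibitor of mTORC1 induced by stress, measured 725, 738 and 717 CPM without and 1704, 1625 and 1711 CPM with TGFβ in MI-spheres, and 874, 909 and 897 CPM without and 887, 857 and 909 CPM with it in MII-spheres. It rose in MI-spheres and overlapped in MII-spheres, with a term of -1.22 ± 0.06 (SE, adjusted p = 4.3e-19). VEGFA, the angiogenic growth factor, measured 111.2, 113 and 107.1 CPM without and 239, 239 and 222 CPM with TGFβ in MI-spheres, and 209.8, 213 and 204 CPM without and 202, 199 and 204 CPM with it in MII-spheres, with -1.13 ± 0.06 (SE, adjusted p = 7.0e-17). Other members rose in both lines but more in MI-spheres. They included the glycolytic enzymes GAPDH (-0.63 (adjusted p = 1.3e-10)), LDHA (-0.56 (adjusted p = 3.5e-09)), PGK1 (-0.40 (adjusted p = 9.2e-06)) and ALDOC (-1.76 (adjusted p = 2.0e-09)) and the carbonic anhydrase CA9 (-1.48 (adjusted p = 0.019)). The glucose transporter SLC2A1 had -0.78 (adjusted p = 7.0e-12). SLC16A3, a lactate exporter, was the single member in the other direction, with 0.21 (adjusted p = 0.016).

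Amino acid response genes under ATF4 and genes of MYC and ribosome biogenesis also leaned toward MI-spheres. Of 36 ATF4 response genes, 17 were more positive in MI- and 4 in MII-spheres, with a median of -0.19. The serine synthesis enzyme PSAT1 measured 7.36, 6.97 and 7.60 CPM without and 30.4, 33.1 and 30.4 CPM with TGFβ in MI-spheres, and 20.9, 20.5 and 19.7 CPM without and 31.3, 34.3 and 33.2 CPM with it in MII-spheres, a rise in both lines with a term of -1.41 ± 0.11 (SE, adjusted p = 1.1e-12). TRIB3 (-1.39 (adjusted p = 2.4e-12)), PSPH (-1.31 (adjusted p = 9.1e-10)), ALDH1L2 (-1.895 (adjusted p = 0.0038)) and ATF4 itself (-0.41 (adjusted p = 5.2e-06)) had the same sign, and CHAC1 (1.13 (adjusted p = 0.0018)) and CEBPB (0.42 (adjusted p = 1.7e-04)) had the opposite one. Of 38 MYC and ribosome biogenesis genes, 17 were more positive in MI- and 1 in MII-spheres, with a median of -0.20. The nucleolar proteins NCL (-0.46 (adjusted p = 1.5e-05)) and NPM1 (-0.41 (adjusted p = 7.0e-05)) were among the former, and ODC1 (0.88 (adjusted p = 8.7e-12)), the polyamine enzyme, was the exception.

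**Figure D4:**
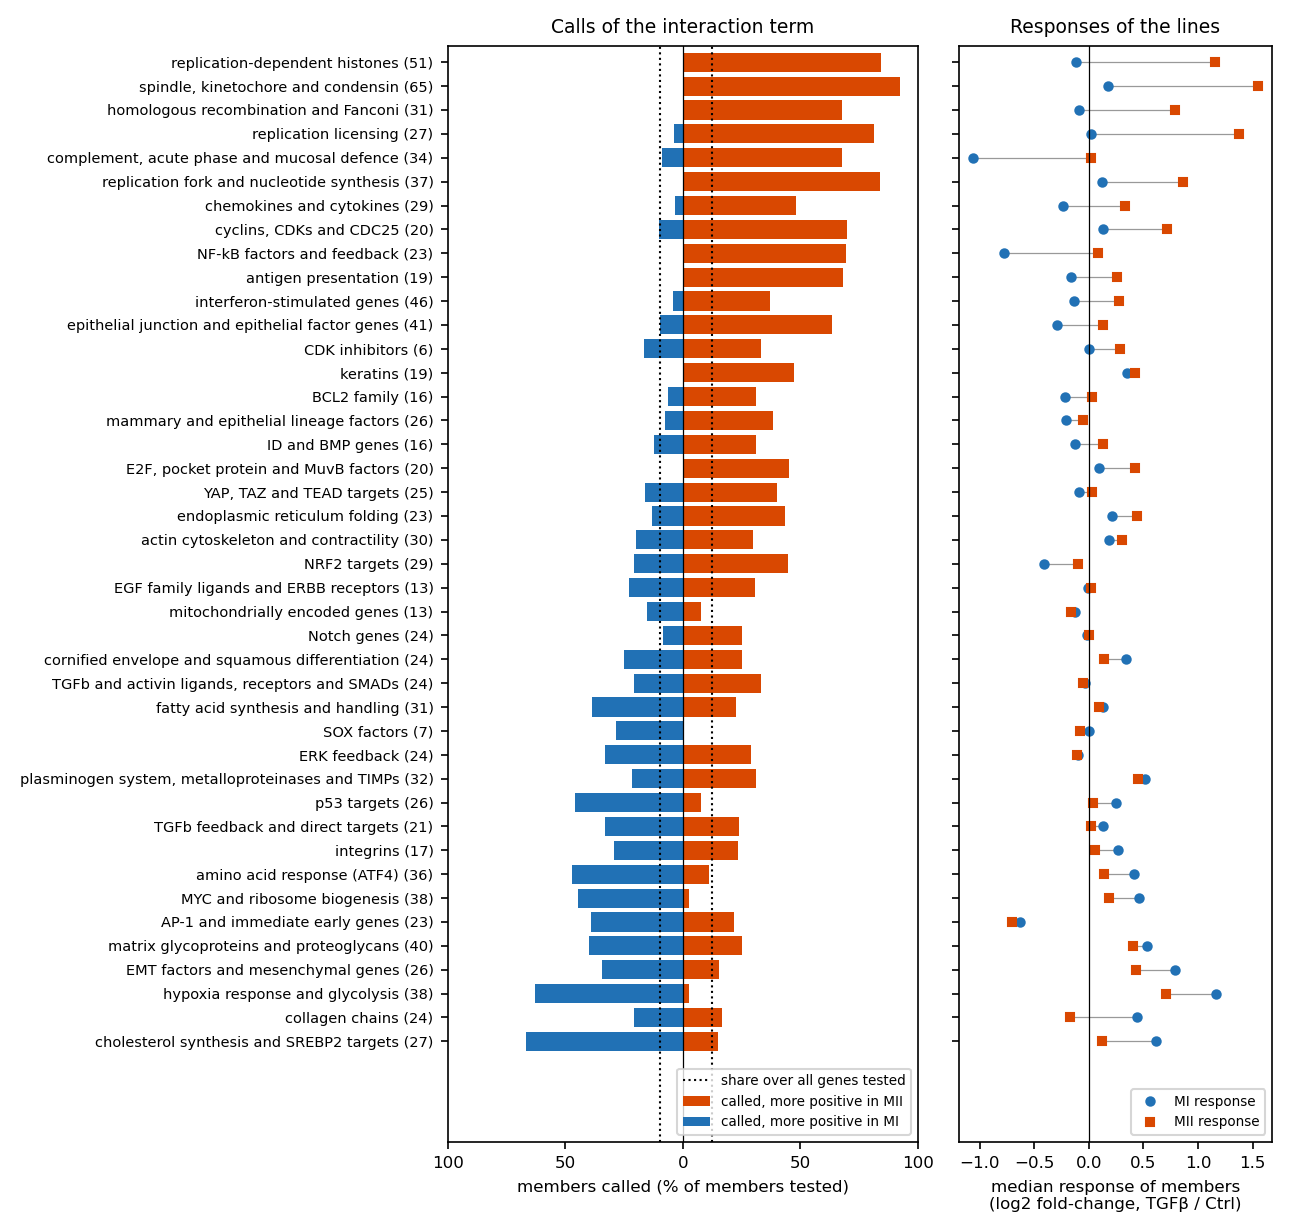
Share of tested members called in each direction (left, percent) and median log2 fold-change upon TGFβ in MI- and MII-spheres (right) for 42 gene lists, with the dotted lines at the shares of all tested genes, 12.6% and 9.75%. Lists are ordered by their median interaction term. Histone, spindle, recombination, licensing, complement and fork genes stand at the end more positive in MII-spheres. Cholesterol, collagen and hypoxia genes stand at the end more positive in MI-spheres.

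**Figure D5:**
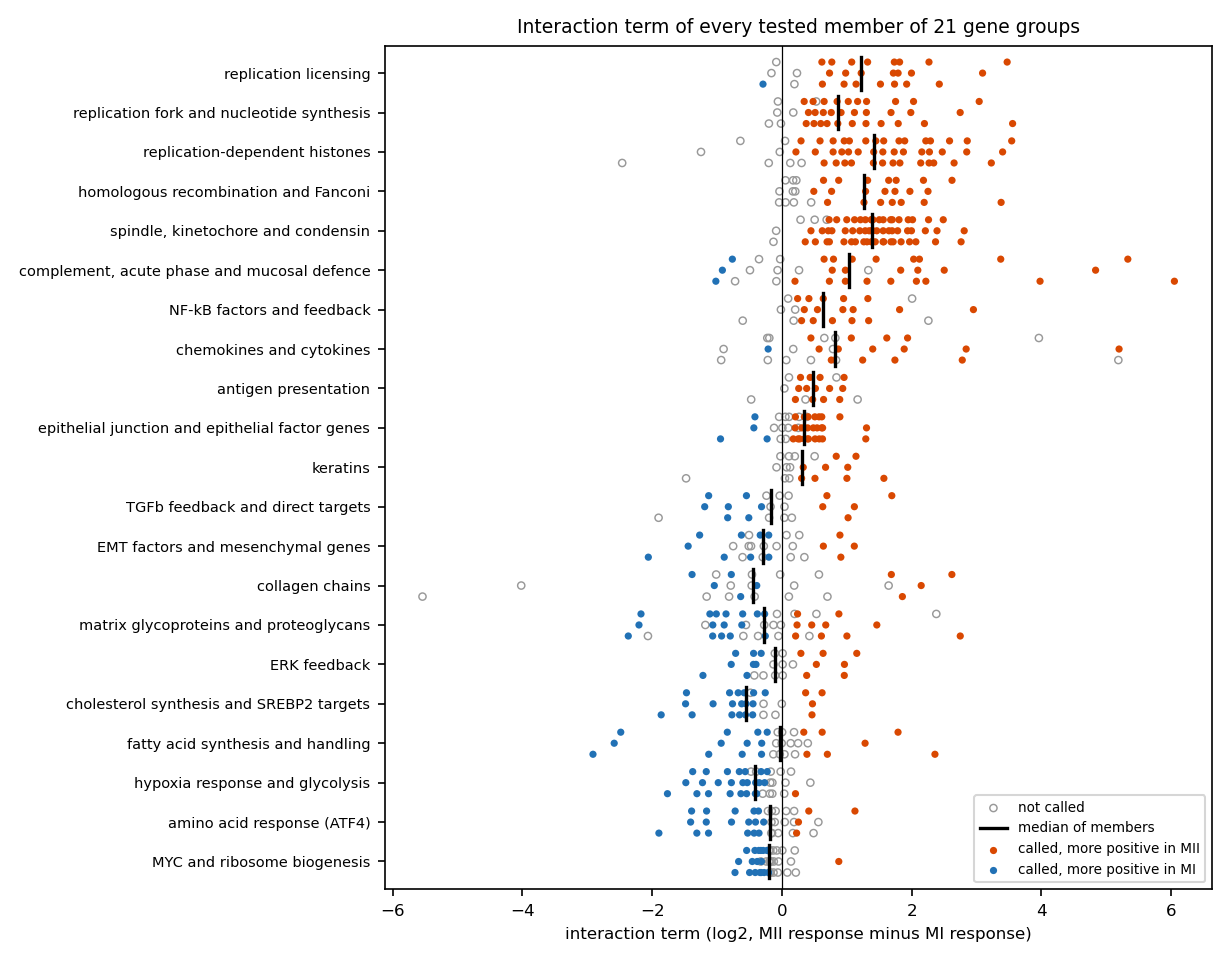
Interaction term (log2) of every tested member of 21 gene lists, with filled points for an adjusted p under 0.05, open points for the rest and a line at the list's median. The medians run from 1.42 for histones and 1.39 for spindle genes to -0.55 for cholesterol genes, and most lists hold members on both sides of 0.

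Several genes outside these lists were named by the size of their p or by opposite responses. Among those that fell in MI- and rose in MII-spheres, AGR2, a disulfide isomerase of secretory epithelia, measured 182, 181 and 194 CPM without and 96.5, 101.8 and 111.95 CPM with TGFβ in MI-spheres, and 48.1, 42.2 and 43.0 CPM without and 142, 135 and 136 CPM with it in MII-spheres, with a term of 2.48 ± 0.08 (SE, adjusted p = 1.4e-24). The mean of the protease PRSS23 went from 102.2 to 18.8 CPM in MI- and from 158 to 195 CPM in MII-spheres, with a term of 2.75 ± 0.08 (SE, adjusted p = 2.1e-26), and that of RDH10, which oxidises retinol, went from 301 to 79.4 CPM in MI- and from 137 to 199.8 CPM in MII-spheres, with 2.47 ± 0.07 (SE, adjusted p = 1.2e-25). Among those that rose in MI- and fell in MII-spheres, AQP3, a water and glycerol channel, went from 846 to 1056 CPM in MI- and from 56.7 to 29.8 CPM in MII-spheres, with -1.25 ± 0.07 (SE, adjusted p = 9.9e-17), and PALMD went from 7.85 to 22.0 CPM in MI- and from 112.4 to 90.7 CPM in MII-spheres, with -1.80 ± 0.10 (SE, adjusted p = 1.1e-17). In none of these 5 genes did the stimulated and unstimulated libraries of a line overlap. Genes that fell in both lines with the larger fall in MI-spheres included TRIM31 (2.45 (adjusted p = 9.1e-27)), the prostaglandin dehydrogenase HPGD (2.51 (adjusted p = 3.7e-26)) and the glutamine synthetase GLUL (2.12 (adjusted p = 2.5e-26)). Genes that rose in both with the larger log2 rise in MI-spheres included LGALS1 (-1.67 (adjusted p = 7.8e-21)), which encodes galectin-1, and TCN1 (-2.58 (adjusted p = 3.2e-25)), which encodes a vitamin B12 carrier. TCN1 went from 9.26 to 76.0 CPM in MI- and from 1386 to 1907 CPM in MII-spheres, so its rise in CPM was larger in MII-spheres.

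Of the 308 lncRNAs called, 177 were more positive in MI-spheres and the rest in MII-spheres. GAS5, a growth arrest transcript that hosts snoRNAs, measured 303, 309 and 307 CPM without and 326, 327 and 368 CPM with TGFβ in MI-spheres, and 342, 338 and 347 CPM without and 194, 181 and 186 CPM with it in MII-spheres. It rose slightly in MI- and fell in MII-spheres, with a term of -1.02 ± 0.07 (SE, adjusted p = 2.4e-15). SNHG5, another snoRNA host, fell in both lines and fell more in MII-spheres (-1.16 (adjusted p = 1.8e-10)), and CASC15 rose more in MI-spheres (-3.02 (adjusted p = 1.6e-11)). NRAD1 measured 23.8, 26.0 and 23.1 CPM without and 3.09, 3.23 and 3.45 CPM with TGFβ in MI-spheres, and 103.2, 104.4 and 103.8 CPM without and 54.8, 51.9 and 49.0 CPM with it in MII-spheres. It fell in both lines, more in MI-spheres on the log2 scale, with 1.89 ± 0.12 (SE, adjusted p = 5.0e-16). In CPM the fall of NRAD1 was larger in MII-spheres. STARD13-AS (2.15 (adjusted p = 1.3e-13)) overlaps a gene on the other strand, and strand was ignored in counting, so its reads cannot be told apart from those of its partner. The share of lncRNA counts was lower with TGFβ in both lines, from 2.33% to 2.46% without and 1.32% to 1.59% with it in MI-spheres, and from 3.08% to 3.18% without and 1.67% to 1.76% with it in MII-spheres.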

How the data were processed

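RNA-seq counts of 12 sphere libraries were analysed, and the other 28 samples of the series were not used here. The authors prepared stranded, rRNA-depleted libraries, used Trimmomatic for trimming and STAR for alignment to GRCh38, and counted read pairs on the exons of GENCODE release 38 with featureCounts (Subread 2.0.0, minimum mapping quality 30, both ends mapped, strand ignored). They deposited raw counts per gene without normalization. Symbols from GENCODE release 44 covered 60507 of 60708 gene identifiers (99.7%).

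Low-count genes were removed with filterByExpr and TMM factors were computed. The quasi-likelihood test of edgeR 4.0.16 (R 4.3.3) was run in 1 fit of the 4 groups, and genes with a Benjamini-Hochberg adjusted p under 0.05 were called. The interaction term and both responses were contrasts of that fit. The SE is the absolute log2 fold-change divided by the square root of F. The script was tested on simulated counts. An exact permutation test of 3 libraries against 3 could not pass 0.05. Nothing in the labels says that replicates came from separate batches of cells, so p-values measure the spread between these libraries, which may be technical. The gene lists, the named genes and the tests were chosen with earlier results of these data known.

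Named genes were the 8 protein-coding genes with the smallest adjusted p beyond log2 1 and the 6 with the largest term at 5 CPM or more in each direction, the 5 genes with opposite responses and the smallest p in each direction, the 4 called members of each list with the smallest p, 3 lncRNAs in each direction, and genes on which the study centres. Other members are given for their role in a list, and some genes are not reported here. Alternatives were DESeq2 1.42.0, limma 3.58.1 (voom), other scalings and filters, a gene-length trend, a replicate block, a term for sequencing sample number and leaving out each library.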

Additional observations from a re-analysis of the deposited data

Results flagged for a closer look

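The lines differed in their response to the same ligand for 4156 genes by the test of the interaction itself, for 1085 of them by more than 1 on the log2 scale, and 472 genes responded in opposite directions. Single genes stood out because their responses in MI- and MII-spheres each passed the test with opposite signs. Among those that fell in MI- and rose in MII-spheres, the interaction terms on the log2 scale were 6.05 for PIGR, 4.23 for FAM111B, 2.75 for PRSS23, 2.48 for AGR2 and 2.47 for RDH10. Among those that rose in MI- and fell in MII-spheres, they were -2.91 for FABP4, -1.80 for PALMD, -1.28 for PADI1, -1.25 for AQP3 and -1.02 for GAS5. For FABP4, stimulated MII libraries were the lowest of the experiment, and for PIGR stimulated MI libraries were.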

How the results depend on the processing

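Across 23 alternatives the number of genes called ranged from 3511 without a low-count filter (46249 genes tested) to 4750 without MI_TGFb replicate 3, around 4156. DESeq2 called 3532, voom 4055, DESeq2's size factors in edgeR 4113, library totals without composition scaling 4212, at least 10 counts in every library 4113, protein-coding genes alone 4050, removal of a gene-length trend 4067 and the sequencing sample number as a term 4343. Leaving out single libraries gave 3640 to 4750 calls. The number of opposite responses moved from 472 to 310 with DESeq2, and the cause was not tested. The share of calls more positive in MII-spheres was 56.4%, and ran from 46.5% without MI_TGFb replicate 2 to 57.7% without MII_Ctrl replicate 2. Library totals shifted the median response of all genes to -0.18 in both lines and left the median interaction at -0.0036.

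Replicate numbers did not pair the libraries, since the correlations of deviations between libraries with the same number ran from -0.0546 to 0.106. A replicate block gave 4273 calls, of which 4120 were among the 4156, and 4184 with the gene-length trend removed as well. Of 4332 alternative fits of the 189 named genes, 4296 kept direction and side of the threshold, 31 lost the call, 5 gained it and none reversed. Most named genes were picked for a small p or a large term in the main fit, so this count does not describe the other calls. Over all genes, fits that left out 1 library shared 3468 to 3866 of the 4156 calls. SOSTDC1, with no counts in MI Ctrl libraries, lost its call in 10 of 22 fits, MT-CO1 and MT-ND2 in 8 of 23 each, NFASC in 3 and MT-ND3 in 2, and CDKN1A gained one in 5. List medians changed sign in 26 of 966 fits, 13 of them for mitochondrially encoded genes. Genes of few counts limit what can be seen, as 3.71% were called in the lowest of 5 groups by mean CPM.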

Other observations

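Genes of stress and survival lists were called in both directions, beside 22.4% of all genes tested and 39.6% of those in the highest of 5 groups by mean CPM. NRF2 induces antioxidant enzymes, and of its 29 targets tested 13 were more positive in MII- and 6 in MI-spheres. SRXN1 (2.84 (adjusted p = 0.0017)), GPX2 (1.91 (adjusted p = 9.1e-21)), ALDH3A1 (1.69 (adjusted p = 9.7e-18)) and NQO1 (0.83 (adjusted p = 3.1e-12)) fell in MI-spheres, while the thioredoxin TXN had -0.34 (adjusted p = 9.0e-05) and the cystine transporter SLC7A11 had -0.53 (adjusted p = 3.3e-06). The median of 0.08 changed sign in 1 of 23 alternatives. Of 26 p53 targets, 12 were more positive in MI- and 2 in MII-spheres, with SESN1 at -0.51 (adjusted p = 3.0e-04), FAS at -0.35 (adjusted p = 0.014) and PLK2 at 0.40 (adjusted p = 3.1e-06), and MDM2 was not called (-0.03 (adjusted p = 0.84)). Of 16 BCL2 family genes, 5 were more positive in MII- and 1 in MI-spheres. The pro-apoptotic BCL2L11, which encodes BIM, measured 66.5, 65.7 and 66.7 CPM without and 89.8, 87.2 and 79.4 CPM with TGFβ in MI-spheres, and 48.9, 54.5 and 53.1 CPM without and 43.7, 39.6 and 38.8 CPM with it in MII-spheres. It rose in MI- and fell in MII-spheres, with a term of -0.73 ± 0.09 (SE, adjusted p = 1.8e-08). BIK (0.88 (adjusted p = 6.1e-08)), BMF (0.57 (adjusted p = 2.0e-06)) and BID (0.45 (adjusted p = 2.3e-05)), also pro-apoptotic, had the opposite sign, as did the survival gene BCL2L1 (0.39 (adjusted p = 0.0015)).

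Of 23 endoplasmic reticulum folding genes, 10 were more positive in MII- and 3 in MI-spheres, with HYOU1 at 0.55 (adjusted p = 5.4e-08) and HSPA5, the chaperone BiP, at -0.41 (adjusted p = 1.7e-04). Of 25 YAP, TAZ and TEAD targets, 10 were more positive in MII- and 4 in MI-spheres, with AMOTL2 (1.57 (adjusted p = 8.5e-15)) and LATS2 (0.93 (adjusted p = 1.3e-06)) on the first side and CCN2 (-1.13 (adjusted p = 7.0e-04)) and TEAD2 (-1.12 (adjusted p = 1.4e-08)) on the second. Of 24 Notch genes, 6 and 2 were called in these directions. The ligands DLL1 (2.38 (adjusted p = 0.0013)) and JAG2 (1.46 (adjusted p = 7.8e-11)) were more positive in MII-spheres, and JAG1 and NOTCH1 were not called (-0.16 (adjusted p = 0.064) and -0.16 (adjusted p = 0.24)). Actin cytoskeleton genes were called in 9 cases as more positive in MII- and in 6 as more positive in MI-spheres among 30 tested, with ACTN4 at 0.55 (adjusted p = 6.6e-08) and ACTN1 at -0.51 (adjusted p = 4.6e-07), a pair of alpha-actinins of opposite sign. Of 13 mitochondrially encoded genes, 1 was more positive in MII- and 2 in MI-spheres, and their terms ran from -0.45 to 0.26. The called members MT-CO1 and MT-ND2 each lost the call in 8 of 23 alternatives, and MT-ND3 in 2.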
